A study of Mus musculus with 8 samples.

Results

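The mRNAs of 9 receptors that sense chemoattractants or complement fragments (C3ar1, C5ar1, Ptafr, Fpr1, Fpr2, Ccr1, Ccrl2, Cx3cr1 and Cxcr4) were followed in macrophages during the first 120 min of LPS stimulation. They were picked by gene symbol from a table of 23143 genes. The table holds read counts of 8 RNASeq libraries from RAW264.7 cells, a mouse macrophage line from a tumour induced by Abelson leukaemia virus. 1 library came from untreated cells (0 min), and the other 7 from cells given 100 ng/ml LPS, the lipopolysaccharide of gram-negative bacteria that TLR4 senses, for 15, 30, 45, 60, 75, 90 or 120 min. Every time point was sequenced once, so differences between libraries had no replicate check, and intervals cover counting error only. The labels give total RNA as the molecule and cytoplasmic as the RNA fraction.

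All 9 genes encode receptors with 7 membrane-spanning helices. C3AR1 and C5AR1 bind C3a and C5a, the small fragments released when complement proteins C3 and C5 are cleaved. PTAFR binds the lipid platelet-activating factor (PAF), and FPR1 and FPR2 bind formylated peptides that bacteria and mitochondria release. CCR1, CX3CR1 and CXCR4 bind the chemokines CCL3 and CCL5, CX3CL1 and CXCL12, respectively, whereas CCRL2 is an atypical receptor that presents chemerin and does not signal through G proteins in the usual way. In phagocytes, the signalling members act mostly through Gi proteins and steer migration, and receptor kinases, arrestins and RGS proteins turn the signal off.

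Total counts ranged from 100250892 to 159077286 per library, and the ribosomal RNA precursor Rn45s took between 8.18% (30 min) and 20.5% (75 min) of them. Counts were divided by median-of-ratios size factors (normalized counts). With total counts as the scale instead, every ratio of the 120 min library to the 0 min library would move by -0.20 on the log2 scale, and that of the 75 min library by -0.33. Summed normalized counts of 10 macrophage markers lay between 726583 and 837466, compared with 8.89 to 24.7 for 5 T cell markers, 2.46 to 14.2 for 4 B cell markers, 52.7 to 71.8 for 4 neutrophil markers (nearly all from S100a8), 13.7 to 37.7 for 3 endothelial markers, and at most 0.855 and 1.27 for 4 fibroblast and 4 epithelial markers. In bulk RNA, fewer cells that express a gene and less RNA per cell cannot be told apart.

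The receptor genes lie on 6 chromosomes (mouse build GRCm38, RefSeq gene table): C3ar1 at chr6:122847140-122856157, C5ar1 at chr7:16246743-16259540, Ptafr at chr4:132564067-132582683, and Cxcr4 at chr1:128588199-128592299. Fpr1 (chr17:17876471-17883939) and Fpr2 (chr17:17887824-17893952) are neighbours on chromosome 17, while Ccr1 (chr9:123962126-123968692), Ccrl2 (chr9:111054834-111057518) and Cx3cr1 (chr9:120048683-120068296) share chromosome 9. Ptafr and Fpr2 are on the plus strand and the other 7 genes on the minus strand. Cx3cr1 is overlapped by the long noncoding RNA Gm33858, and the sources used here do not say whether reads were counted by strand.

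The 250 bases upstream of each annotated start (RefSeq, GRCm38.p6) were searched on both strands for short motifs of factors that act in macrophages. All 9 genes had at least 1 such window, and Ccrl2 had 3, giving 11 windows that were set against all 32851 windows of the same length. The NF-κB motif (GGGA and TCC with any 3 bases between) was found in 2 of the 11 windows, upstream of Ccrl2 and Ccr1, and in 3.86% of all windows. Only 1 of the 3 Ccrl2 windows held it, the one printed below. The AP-1 motif TGANTCA was found upstream of C3ar1 and in 6.75% of all windows. The other motifs searched were common. GAGGAA (PU.1) occurred in 23.3% of all windows and in those of Ccr1, Fpr2 and Ptafr. TTNCNNAA (C/EBP) occurred in 36.8% of all windows and in those of C5ar1, Ccr1, Cxcr4, Fpr1 and Fpr2. TATAAA, a core promoter element, occurred in 12.4% of all windows and in those of C3ar1, Cxcr4, Fpr1 and Fpr2. A match describes letters, not binding. The PU.1 and C/EBP matches of Ccr1 overlap, as do those to TATAAA on both strands of Cxcr4.

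The 150 bases just upstream of the start are printed for Ccrl2 (chr9:111057519-111057668, minus strand), the gene with the earliest and largest rise, for Ccr1 (chr9:123968693-123968842, minus strand), which holds the same motif, for C3ar1 (chr6:122856158-122856307, minus strand), the second largest riser among the well-covered genes, and for Cxcr4 (chr1:128592300-128592449, minus strand), the gene with the deepest fall. Each runs 5′ to 3′ along the gene's own strand and ends 1 base before the start. Capitals mark the NF-κB match in Ccrl2 (on the opposite strand) and Ccr1, the AP-1 match in C3ar1 and the match to TATAAA in Cxcr4, which begin 68, 74, 22 and 30 bases before the start.
Ccrl2: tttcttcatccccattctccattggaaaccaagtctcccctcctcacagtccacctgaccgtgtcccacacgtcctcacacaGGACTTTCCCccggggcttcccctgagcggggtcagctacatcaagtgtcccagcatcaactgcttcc
Ccr1: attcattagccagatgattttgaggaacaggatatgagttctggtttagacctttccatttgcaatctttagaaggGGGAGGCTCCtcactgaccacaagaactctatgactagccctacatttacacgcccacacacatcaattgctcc
C3ar1: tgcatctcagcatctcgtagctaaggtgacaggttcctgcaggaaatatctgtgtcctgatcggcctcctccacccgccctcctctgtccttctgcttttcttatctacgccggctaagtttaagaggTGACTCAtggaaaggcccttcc
Cxcr4: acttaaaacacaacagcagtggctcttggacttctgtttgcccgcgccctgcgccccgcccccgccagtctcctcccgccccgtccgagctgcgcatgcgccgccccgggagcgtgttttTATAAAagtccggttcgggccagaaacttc

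To see how much mRNA of each receptor the cells held, levels were compared per length, as reads per kilobase of unique transcript sequence and as a share of the library's total count (rpkm). Untreated cells contained mostly Cx3cr1 mRNA, at 164.0 rpkm (95% Poisson interval 162.8 to 165.1). C3ar1 followed at 6.31 rpkm (6.11 to 6.53), C5ar1 at 3.33 (3.14 to 3.54), Ptafr at 3.12 (2.96 to 3.29) and Cxcr4 at 1.88 (1.71 to 2.07). Ccrl2 at 0.159 rpkm (0.118 to 0.209) and Ccr1 at 0.129 (0.0949 to 0.172) were scarce. Fpr1 and Fpr2 had no read, which allows up to 3 counts each, or 0.0229 cpm. The intervals of C5ar1 and Ptafr, of Ccrl2 and Ccr1, and of Fpr1 and Fpr2 overlapped, so that the order within each of these neighbouring pairs was not resolved.

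At 120 min the order was Cx3cr1 (64.5 rpkm), C3ar1 (37.2), C5ar1 (14.3), Ptafr (5.15), Ccrl2 (4.43), Cxcr4 (0.442), Ccr1 (0.172), Fpr1 (0.0744) and Fpr2 (0.0307). Ccrl2 had moved past Cxcr4, and among neighbours only the intervals of Fpr1 and Fpr2 overlapped. Because both are counted in the same library, a ratio of one receptor to another does not depend on the scaling between libraries. Per length, Cx3cr1 exceeded C3ar1 26.0-fold (25.1 to 26.9) at 0 min, 6.76-fold at 60 min and 1.73-fold (1.70 to 1.76) at 120 min. Cx3cr1 made up 91.6% of the summed rpkm of the 9 receptors at 0 min and 51.1% at 120 min, while the share of C3ar1 went from 3.53% to 29.5% and that of C5ar1 from 1.86% to 11.3%. The sum itself, which unlike these ratios and shares depends on the scale, here total counts, went from 178.9 to 126.3 rpkm.

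**Figure D1:**
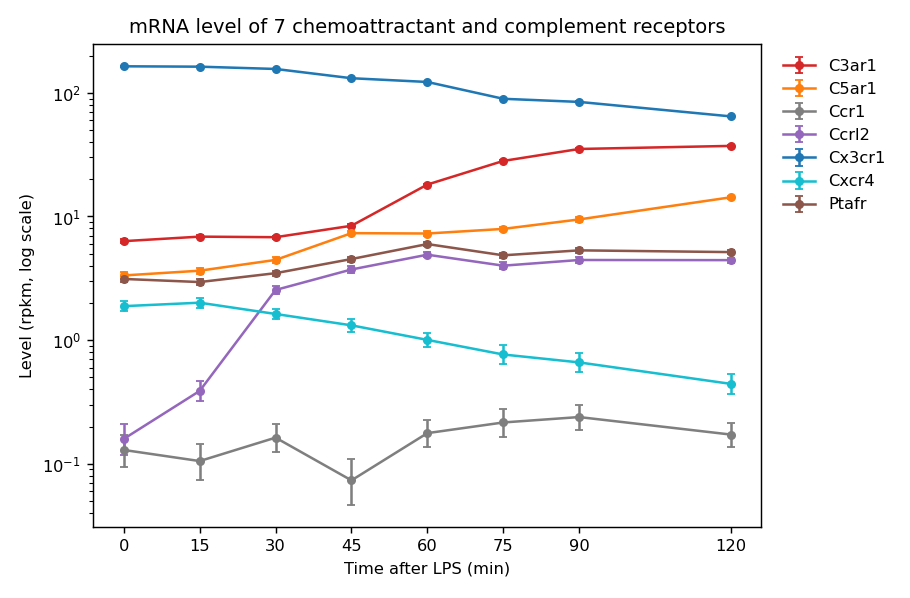
mRNA level of 7 receptors (rpkm, log axis) against time after LPS (min), 1 point per library, with exact Poisson 95% intervals as bars. Cx3cr1 stays on top while going from 164.0 to 64.5 rpkm, Ccrl2 climbs from 0.159 to 4.43 rpkm and crosses Cxcr4, which goes from 1.88 to 0.442 rpkm. Fpr1 and Fpr2, with at most 15 and 5 reads, are not drawn.

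**Figure D2:**
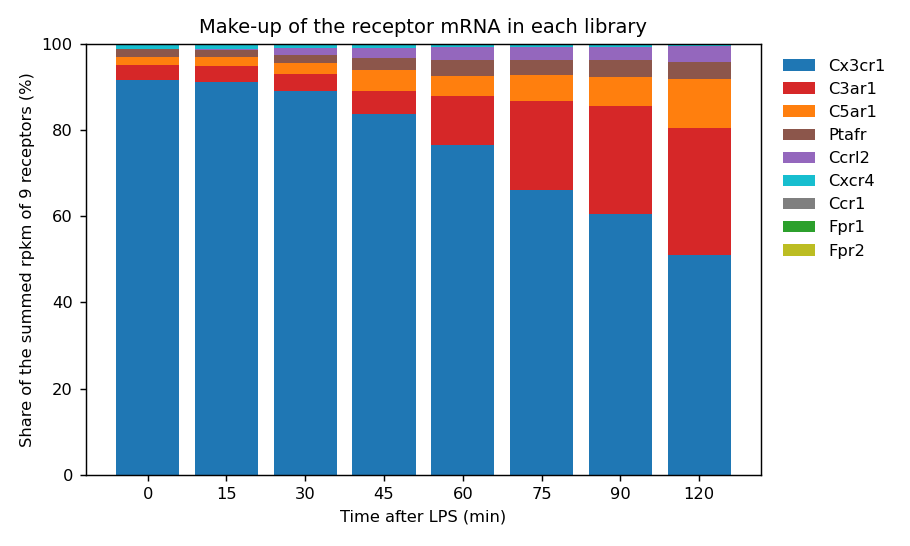
Share of each receptor in the summed rpkm of all 9 (%, stacked bars from 0 to 100) in the library of each time point (min after LPS). The Cx3cr1 bar shrinks from 91.6% to 51.1% and the C3ar1 bar grows from 3.53% to 29.5%.

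Each LPS library was then compared with the 0 min library. A gene was called higher or lower when the exact negative binomial test of the 2 libraries passed 0.05, without adjustment for many genes, and the log2 ratio lay beyond 0.5 in size. This test takes the scatter across all 8 libraries in place of a spread between replicates, and describes the libraries rather than the conditions. Of the 9 receptors, 1 was called higher after 15 min (all genes tested: 0.265%), 1 after 30 min (1.04%), 3 after 45 min (3.42%), 4 after 60 min (3.14%), 5 after 75 min (4.3%), 5 after 90 min (5.24%) and 5 after 120 min (7.05%). None was called lower at 15, 30 or 45 min, where 0.147%, 0.183% and 1.36% of all 16967 genes tested were. 1 receptor was called lower after 60 min (2.16%), 1 after 75 min (3.13%), 2 after 90 min (4%) and 2 after 120 min (6.18%). With total counts as the scale, 677 genes were called higher and 1250 lower at 120 min in place of 1196 and 1049, and of the receptors 3 and 2. The median log2 ratio of the 9 receptors, with 1 added to each normalized count, was 0.06, 0.18, 0, 0.54, 1.27, 1.12 and 2.30 in the 7 LPS libraries in order of time, compared with 0 for all genes tested in each of them. The value of 2.30 rested on the 15 and 5 reads of Fpr1 and Fpr2. Those at 45 and 75 min were the values of these 2 genes, with 0 and 1 read each. With counts under 3 set to 3, the medians at 45, 75 and 120 min were 0.40, 0.97 and 0.92. For the 7 receptors with a mean of at least 10 they were 0.60, 1.05 and 0.92.

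Both anaphylatoxin receptors were higher at 120 min, C3ar1 by 6.78-fold (95% interval 6.54 to 7.03) and C5ar1 by 4.93-fold (4.62 to 5.27), but their courses differed. C3ar1, the receptor for C3a, had, in the order of the time points, 3007, 3428, 3301, 4558, 9217, 16873, 20048 and 20388 normalized counts. It was first called at 60 min. Its largest 2 steps were 2.02-fold (1.95 to 2.10) from 45 to 60 min and 1.83-fold (1.78 to 1.88) from 60 to 75 min, both called, and from 90 to 120 min the ratio was 1.02 (0.997 to 1.04).

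C5ar1, the receptor for C5a, had 938, 1074, 1278, 2348, 2189, 2812, 3190.5 and 4628.5 normalized counts from 0 to 120 min. Its first call came at 45 min, 15 min before that of C3ar1, with a called step of 1.84-fold (1.72 to 1.96) from 30 to 45 min. The ratio from 90 to 120 min was 1.45 (1.38 to 1.52), which was not called. Within the same library, the per-length ratio of C3ar1 to C5ar1 was 1.89 (1.77 to 2.03) at 0 min, 1.15 (1.09 to 1.21) at 45 min, 3.71 (3.56 to 3.88) at 90 min and 2.60 (2.53 to 2.68) at 120 min. In these libraries, C5ar1 thus gained on C3ar1 up to 45 min, fell behind up to 90 min and gained again at 120 min. Their intervals did not overlap, but they cover counting error only. At 60 min the ratio was 2.49 (2.38 to 2.60), and its interval overlapped that at 120 min. Among the 0, 30, 60 and 120 min libraries, which were the lowest in Rn45s, the late gain of C5ar1 was therefore not seen.

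Ptafr, the PAF receptor, rose less and stopped earlier. Over the 8 libraries, in order of time, it had 1242, 1228, 1411, 2049, 2541, 2429, 2534 and 2355 normalized counts. The libraries from 60 to 120 min lay close together, between 1.90-fold (1.78 to 2.02) and 2.05-fold (1.92 to 2.18) of the 0 min level, and every library from 45 min on was called higher. The call at 120 min was lost with total counts as the scale (log2 ratio 0.72 in place of 0.92), with total counts without Rn45s, with Benjamini-Hochberg adjustment and with a log2 limit of 1. The adjustment also ended the calls of Ptafr at the earlier times, and every alternative but the filter on low counts ended that at 45 min. The calls at 75 and 90 min were also lost with total counts as the scale, and that at 75 min with a log2 limit of 1.

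The formyl peptide receptors were barely detected. Fpr1 had 1 read at 75 min, 15 at 120 min and none in the other 6 libraries. It was called at 120 min. Against the 3 counts that a 0 allows in the 0 min library, the 15 reads stood for a ratio of at least 4.74 before their own counting error, and the counting interval of the ratio to 0 reads reached down to 3.40. Fpr2 had 1 read each at 30, 75 and 90 min, 5 at 120 min and none in the other 4 libraries, and was not called at any time. Taken the same way, Fpr2 had a ratio of at least 1.58, but its counting interval reached down to 0.868. The other 7 receptors, but not these 2, had a mean of at least 10 normalized counts. The Fpr1 call was lost with total counts as the scale, with total counts without Rn45s and with Benjamini-Hochberg adjustment.

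Ccrl2, the atypical chemerin receptor, changed first and most. Successive libraries held 42.8, 109.4, 698.5, 1142, 1411, 1356, 1433 and 1373 normalized counts. At 15 min, when 45 of all genes were called higher, Ccrl2 was already 2.56-fold higher (1.82 to 3.64), and it was the only receptor called there, a call that Benjamini-Hochberg adjustment ended. The next step, from 15 to 30 min, was 6.38-fold (5.25 to 7.82), the largest of any neighbouring pair of libraries among the 7 receptors with a mean of at least 10. From 60 to 120 min Ccrl2 lay on a plateau between 31.7-fold and 33.5-fold of the 0 min level. The steps between neighbouring libraries there were 0.961 (0.886 to 1.04), 1.06 (0.969 to 1.15) and 0.958 (0.888 to 1.03), none of them called.

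Ccr1, a receptor for CCL3 and CCL5, was covered by only 23 to 76 reads per library. In time order, its normalized counts were 40.2, 34.3, 51.6, 26.0, 58.8, 84.5, 88.9 and 61.6. It was called higher at 75 min (2.10-fold, 1.41 to 3.15) and at 90 min (2.21-fold, 1.51 to 3.27), but not at 120 min (1.53-fold, 1.05 to 2.25). The 75 and 90 min libraries had the smallest size factors (0.710 and 0.788), and held 60 and 70 raw reads of Ccr1, compared with 76 at 120 min. Both calls ended with total counts as the scale, with total counts without Rn45s, with the edgeR dispersion trend and with Benjamini-Hochberg adjustment, and that at 75 min also with TMM factors. Per length, the interval of the ratio of Ccrl2 to Ccr1 included 1 at 0 min (1.23, 0.809 to 1.87), whereas Ccrl2 exceeded Ccr1 25.8-fold (20.5 to 32.9) at 120 min.

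Cx3cr1 and Cxcr4, the receptors for CX3CL1 and CXCL12, were the members called lower. Cx3cr1 had 67931, 70684, 65936, 61932, 54203.5, 46716, 41909 and 30728 normalized counts in the libraries from 0 to 120 min. Every library from 30 min on lay below the one before it. Ratios to 0 min were 0.798 at 60 min and 0.617 at 90 min, the first library called, and 0.452 (0.447 to 0.458) at 120 min. The call at 90 min ended with the edgeR dispersion trend, with Benjamini-Hochberg adjustment and with a log2 limit of 1, and that at 120 min under none of the alternatives run. No single step between neighbouring libraries was called, the largest being 0.733 (0.722 to 0.744) from 90 to 120 min.

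Cxcr4 was less abundant and fell further. From the first to the last library, it had 368.7, 412.0, 325.1, 293.7, 210.1, 188.7, 154.9 and 99.7 normalized counts. It was called lower from 60 min on, with ratios of 0.570 (0.484 to 0.669) at 60 min and 0.270 (0.219 to 0.331) at 120 min. The calls at 60 and 75 min, though not that at 120 min, were lost with the dispersion trend of edgeR, with Benjamini-Hochberg adjustment and with a log2 limit of 1, and the call at 90 min with the first 2 of these. Per length, Cx3cr1 exceeded Cxcr4 87.1-fold (79.3 to 96.0) at 0 min and 145.8-fold (122.1 to 175.5) at 120 min, 2 intervals that did not overlap.

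**Figure D3:**
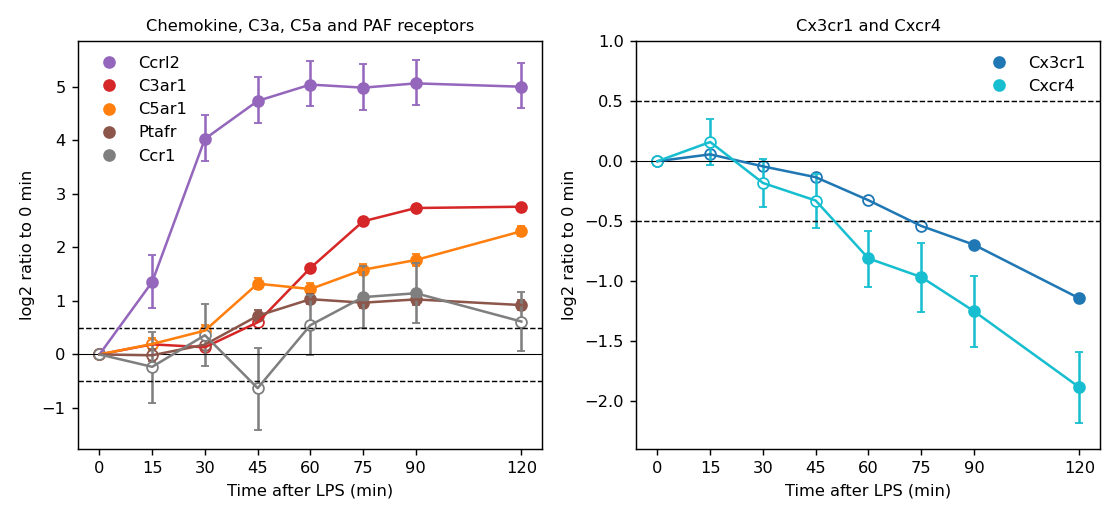
log2 ratio of normalized counts to the 0 min library against time after LPS (min), for 5 receptors with ratios mostly above 0 (left) and for Cx3cr1 and Cxcr4 (right). Bars are 95% counting intervals, filled points were called, open points were not, and dashed lines mark the limits of 0.5. Ccrl2 is on its plateau by 60 min, C3ar1 climbs between 45 and 75 min, and Cxcr4 lies below Cx3cr1 from 30 min on.

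By the time of their first maximum or minimum, 6 receptors had a late first maximum, at or after 60 min: Ptafr at 60 min, Ccr1 and Ccrl2 at 90 min, and C3ar1, C5ar1 and Fpr1 at 120 min. Such a pattern was found in 7.28% of all genes tested. Cx3cr1 and Cxcr4 had a late first minimum, at 120 min for both, as did 7.26% of all genes. Fpr2 had neither, and no receptor had an early extremum. The pattern of Fpr1 was lost without the 75, 90 or 120 min library, and that of Ccr1 without the 90 min library. With total counts as the scale both were lost, leaving 4 late first maxima, and with Benjamini-Hochberg adjustment that of Ptafr was lost as well, leaving 3.

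A straight line in time on the log scale was fitted to all 8 libraries with the quasi-likelihood test of edgeR, in which the scatter around the line stands in for replicate error. Of the 7 receptors that passed the mean count of 10, 4 rose (23.1% of 12188 genes tested did) and 2 fell (24.1%). With total counts as the scale, these receptors were again 4 and 2, while 1211 genes rose and 4465 fell in place of 2816 and 2942. For C5ar1 the slope was 1.18 log2 units per hour (Benjamini-Hochberg adjusted p = 0.000105, edgeR), for C3ar1 1.75 (adjusted p = 0.00040, edgeR) and for Ptafr 0.60 (adjusted p = 0.00662, edgeR). Cx3cr1 had a slope of -0.61 (adjusted p = 0.000177, edgeR) and Cxcr4 of -1.03 (adjusted p = 0.000126, edgeR). C3ar1, C5ar1, Cx3cr1 and Cxcr4 passed under every alternative run, with adjusted p-values of the edgeR and DESeq2 fits of at most 0.0246.

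Ccrl2, whose course bends into a plateau, passed narrowly (slope 1.94, adjusted p = 0.0472, edgeR), with a range of 0.00292 to 0.242 over the alternatives that kept the straight line. It did not pass without the 0, 15, 30, 60, 75 or 90 min library or, narrowly, without the filter on mean counts (adjusted p = 0.050003, edgeR). With the square of time added to the line it passed (adjusted p = 0.00108, edgeR). Fpr1 and Fpr2, tested only without that filter, passed there on 16 and 8 reads in all (adjusted p = 0.000263 and 0.0126, edgeR). Without it, 5 receptors rose in place of 4, and 2716 of all genes in place of 2816. Ccr1 did not pass (slope 0.58, adjusted p = 0.0701, edgeR; 0.0357 to 0.221 over the alternatives), but did without the 45 or the 120 min library and with the Wald test of DESeq2 (adjusted p = 0.0465). Ptafr ranged from 1.48e-05 to 0.113 in the adjusted p-values of these edgeR and DESeq2 fits, and did not pass with the 0, 30, 60 and 120 min libraries alone, whose Rn45s shares lay between 8.18% and 9.11%. With these 4 libraries Ccrl2 did not pass either, so that 2 receptors rose in place of 4.

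Of 30 further chemokine, complement, leukotriene, chemerin and formyl peptide receptors, 29 had a row, 6 of these had no read in any library and 11 reached a mean of 10. 3 of the 29 were called higher (7.05% of all genes tested were) and 1 lower (6.18%) at 120 min, and the median log2 ratio of the list was 0. The 6 receptors without a read could not be called, whereas all genes tested had at least 1 read. Ccr9 went from 4 to 47 reads (11.1-fold, 4.07 to 42.5) and Xcr1, the receptor for XCL1, from 58 to 143 reads (2.34-fold, 1.71 to 3.23). Cxcr3, the receptor for CXCL9 and CXCL10, was lower, at 411 after 695 reads (0.560, 0.495 to 0.634). Cxcr2, the most abundant of the list at 0 min, went from 3.80 to 5.44 rpkm (1.65-fold in normalized counts, 1.54 to 1.76). The Cxcr2 call was lost under every alternative scale, with the edgeR dispersion trend, with Benjamini-Hochberg adjustment and with a log2 limit of 1. That of Xcr1 was lost with total counts as the scale, with the dispersion trend and with the adjustment. Cxcr3 lost its call with the trend, the adjustment and the limit of 1. Over time, 1 of the 11 tested rose (23.1% of all genes) and 2 fell (24.1%) in the line fit.

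Of 22 genes for ligands of these receptors and for enzymes that make or break down PAF, 7 were called higher (7.05% of all genes tested) and 1 lower (6.18%) at 120 min, with a median log2 ratio of 0.00. 3 of the 22 had no read in any library and could not be called. Ccl5 (85.6-fold, 54.6 to 142.5) and Ccl3 (32.4-fold, 31.6 to 33.2), both ligands of CCR1, changed most, and Ccl3 reached 2087 rpkm. C3, Anxa1, Ccl7, Ccl9 and Cx3cl1 were also called higher. Cx3cl1, the ligand of CX3CR1, had 14 reads at 120 min and none at 0 min, and Cxcl12, the ligand of CXCR4, none in either. Lpcat1, an enzyme of PAF synthesis, was lower (0.524, 0.504 to 0.545). Mif, a cytokine that also binds CXCR4 and had the highest level of the list at 0 min (918.6 rpkm), had a ratio near 1 (interval 0.993 to 1.02). Of the 14 tested, 8 rose (23.1% of all genes) and 3 fell (24.1%) in the line fit. With total counts as the scale 5 were called higher, Anxa1 and C3 no longer among them. The Anxa1 call was lost under every alternative run on this list, and that of C3 under all but TMM factors. Cx3cl1 lost its call with total counts without Rn45s and with Benjamini-Hochberg adjustment, leaving 4 called higher under each. With that adjustment or a log2 limit of 1 the Lpcat1 call was lost.

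Of 35 genes for G proteins, their effectors and the proteins that desensitize such receptors, 3 were called higher (7.05% of all genes tested) and 3 lower (6.18%) at 120 min, shares near those of all genes, with a median log2 ratio of -0.10. Rgs16 was 11.8-fold (10.2 to 13.7) and Rgs1 3.24-fold (3.14 to 3.35) higher, both encoding RGS proteins that speed up GTP hydrolysis by G protein alpha subunits. Pik3r5, a regulatory subunit of PI3-kinase gamma, was 3.50-fold (3.45 to 3.56) higher. Gna15, the alpha subunit of G15, had a ratio of 0.162 (0.151 to 0.174), Rgs14 one of 0.271 (0.251 to 0.292), and beta-arrestin 1 (Arrb1) one of 0.563 (0.550 to 0.576). Gnai2, a Gi alpha subunit and the most abundant of the list at 0 min, was not called, at 252.9 and 192.1 rpkm. The Arrb1 call was lost with Benjamini-Hochberg adjustment and with a log2 limit of 1. With total counts as the scale 4 genes of the list in place of 3 were called lower, and 5 with total counts without Rn45s. Of all genes, 1250 and 1435 were called lower on these scales in place of 1049. Of the 34 tested, 9 rose (23.1% of all genes) and 13 fell (24.1%) in the line fit.

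**Figure D4:**
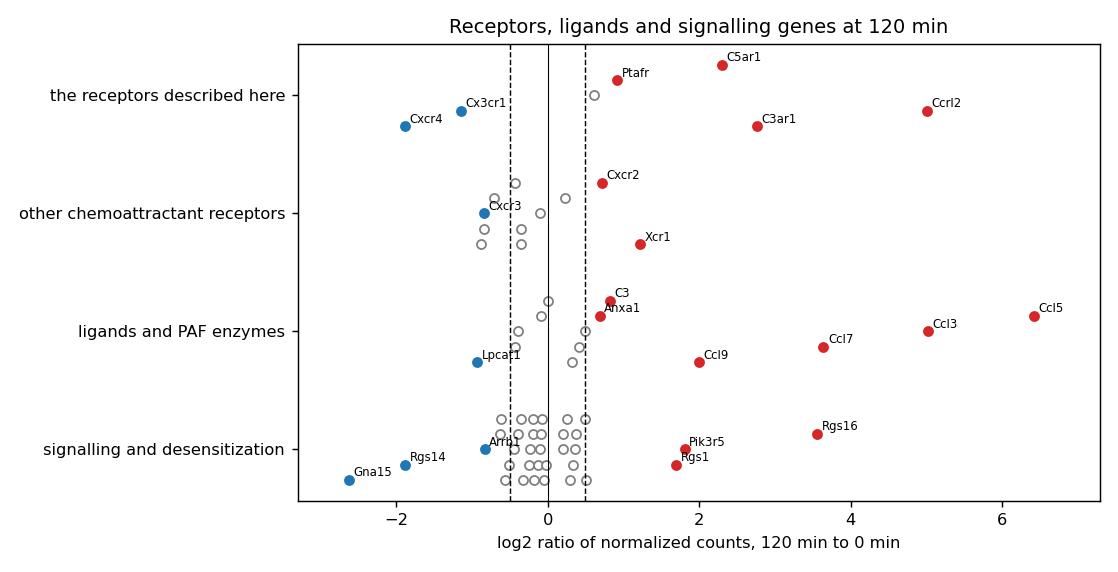
log2 ratio of normalized counts of the 120 min to the 0 min library for the receptors described here and for the 3 further lists, 1 point per gene with a count in both libraries and, in the lists, an average of 10 or more normalized counts. Red points were called higher, blue points lower, open points neither, and dashed lines mark 0.5 in size. Ccrl2, at 5.00, lies close to Ccl3, and Cxcr4, at -1.89, close to Rgs14.

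For the 6 receptors whose normalized counts averaged 100 or more, the genes with the most similar course were looked up by Pearson's r of log2(normalized count + 1) over the 8 libraries, among 10494 genes. These r values describe series of 8 points that share libraries and time. C3ar1 was closest to Hnrnpk (r = 0.998), Prrg4 (0.997) and Crem (0.996). C5ar1 was closest to Ptpn23 (0.998), Lonrf1 (0.993) and Pvr (0.991), and Ptafr to Srxn1, Errfi1 (0.993 for both) and Slc20a1 (0.992). Ccrl2 was closest to Jund (0.998), Nfkbiz and Map1b (0.989 for both). Cx3cr1 was closest to 4632428N05Rik (0.999), Nlrp1b and Tspan14 (0.998 for both), and Cxcr4 to Fez2, Zbtb12 and Zfp862 (0.998 for each). A high r does not mean a similar size of change: Hnrnpk had a log2 ratio of 0.30 at 120 min, compared with 2.76 for C3ar1. Among the receptors, Cx3cr1 and Cxcr4 had the highest r (0.989), followed by C3ar1 and C5ar1 (0.913), whereas r was 0.716 between C3ar1 and Ccrl2.

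The pentamer AUUUA, the core of AU-rich elements in 3′UTRs, was counted in the annotated 3′UTR of each receptor mRNA. 7 of the 9 had at least 1. These 7 had a mean of at least 10 normalized counts, which Fpr1 and Fpr2 did not reach. Among 11301 genes with such a mean, 67.2% had at least 1. Per kilobase, Ccrl2 had 2.33 and C5ar1 2.32, followed by Cxcr4 (1.55), C3ar1 (1.49), Ccr1 (0.769), Ptafr (0.424) and Cx3cr1 (0.387). The median of these 11301 genes was 1.25 per kilobase. Fpr1 and Fpr2, whose annotated 3′UTRs are only 160 and 54 bases long, had none.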

How the data were processed

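Read counts per gene symbol for 8 libraries, 1 per time point, were used as deposited by the authors. According to the study's methods, ribosomal RNA was depleted, reads of 58 bases were mapped with Bowtie (version not given in the sources used here) to RefSeq transcripts with up to 2 mismatches, and reads matching more than 1 gene were discarded, which lowers counts of genes with near-identical copies. The labels name CASAVA 1.8.2 and DESeq 1.10.1 in the submitters' processing notes. The receptors and the gene lists were chosen with earlier results of these data known.

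From the counts, size factors, a blind dispersion and the exact negative binomial test of pairs of libraries were computed in Python 3.11.15 (numpy 2.4.6, scipy 1.17.1) after the DESeq settings of the study, with a p limit of 0.05 and a log2 limit of 0.5. A quasi-likelihood test of pairs has no residual degrees of freedom with 1 library each. The line over time was fitted with edgeR 4.0.16 (glmQLFit, TMM factors, mean count of at least 10, 6 residual degrees of freedom) and Benjamini-Hochberg adjusted over 12188 genes. Ratios carry exact conditional binomial 95% intervals and rpkm values exact Poisson 95% intervals. Lengths are unique 58-mers of GENCODE vM21 transcripts. Where no read was found, up to 3 counts were allowed for.

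On simulated data, 200 of 200 genes changed 4-fold were called at 120 min and 18 of 10294 unchanged genes, over 23143 genes. For the line, 200 of 200 and 11 of 10294 were called, over 12186 genes. The simulated scatter between libraries was set smaller than the dispersion fitted to the real ones. Only genes with a mean of at least 100 were changed or scored, which leaves out Ccr1, Fpr1 and Fpr2. These rates therefore do not carry over to the real libraries or to genes with fewer reads. All 9 receptors are named. From each list, the 2 called genes with the largest change in each direction and the most abundant gene at 0 min were named, as were the 3 genes with the highest r per receptor. C3, Anxa1, Ccl7, Ccl9, Cx3cl1, Cxcl12, Rgs1 and Arrb1 were named after their values were seen. Alternatives were other scales (total counts, with and without Rn45s, and TMM), the edgeR dispersion trend, DESeq2 1.42.0, Benjamini-Hochberg adjustment, other filters and limits, the square of time, left-out libraries and the longest transcript as the length.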

Additional observations from a re-analysis of the deposited data

How the results depend on the processing

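No paired analysis was possible because each time point had 1 library and no replicate numbers were shared. No result changed direction under any alternative run, but the receptor ratios at 120 min could not have done so. Alternatives that kept the scale left each ratio unchanged. Other scales moved it by about -0.20 on the log2 scale or less, while the smallest ratio in size was 0.62 (Ccr1). Of 54 ratios of receptors at 120 min under the alternatives, 47 stayed called or not called as before, and 7, of Ptafr and Fpr1, were no longer called. The 47 include those of Fpr2 and Ccr1, which were not called at 120 min to begin with. The number of receptors called higher at 120 min was 3 in place of 5 with total counts, with total counts without Rn45s and with Benjamini-Hochberg adjustment. The number called lower at 60 min was 0 in place of 1 with the edgeR dispersion trend, with Benjamini-Hochberg adjustment and with a log2 limit of 1. With Benjamini-Hochberg adjustment, 3 receptors in place of 6 had a late first maximum. With the 0, 30, 60 and 120 min libraries alone, an alternative chosen after seeing the data, 2 receptors in place of 4 rose in the line fit. With the length of the longest transcript, Cx3cr1 stood at 134.9 in place of 164.0 rpkm at 0 min. Without the 120 min library the first extremum of C3ar1, C5ar1, Cx3cr1 and Cxcr4 moved to 90 min, the last library left. That of Ptafr moved to 90 min without the 60 min library, and that of Ccrl2 to 60 min without the 90 min library or with total counts.

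Over all genes, 1196 were called higher and 1049 lower at 120 min, compared with 677 and 1250 with total counts, 755 and 1435 with total counts without Rn45s, 599 and 473 with Benjamini-Hochberg adjustment, and 761 and 657 with a log2 limit of 1. At 60 min, 532 higher calls became 242 with that adjustment, and 366 lower calls became 175 with the edgeR dispersion trend, 85 with the adjustment and 193 with the limit of 1. In the line fit, 2816 genes rose and 2942 fell, compared with 1211 and 4465 with total counts, and 1474 and 1107 with the 4 libraries. The cause of these differences was not tested. Depth limits Fpr1, Fpr2 and Ccr1, with at most 15, 5 and 76 reads per library.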
